A study of Mus musculus with 16 samples.

Results

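The genes described here were at or near a count of 0 in untreated mouse macrophage-like cells and through the first 90 min of lipopolysaccharide (LPS), and were counted in both input RNA and ribosome footprints at 16 h. They were chosen on measured read counts. Each had at most 3 counts in the untreated input library and at most 3 in the untreated footprint library, at most 20 in every library from 15 to 90 min, and at least 30 in each of the 2 libraries at 16 h. Nos2, Lcn2, Rsad2, Zbp1, Aim2 and Marco, and genes whose names begin with Il and a digit, Ccl, Cxcl, Csf, Ifi, Ifit, Oas, Gbp or Clec, or that are named Mx1 or Mx2, were left out by name. Of 13832 genes in the table, 3245 stayed within the limits before 16 h, 60 also met the limit at 16 h, 16 of those were left out by name, and 44 remained. The low early counts and the high counts at 16 h are thus how the genes were picked, so they are given below as a description, with no test. "Silent" is a short name: 26 of the 44 had 0 counts in the untreated input library and 25 in the untreated footprint library, and the others had 1 to 3.

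Cells of RAW264.7, a macrophage-like mouse line, were left untreated or given 100 ng/ml LPS for 15, 30, 45, 60, 75 or 90 min or for 16 h. From each lysate a share was kept as input, which was cytoplasmic RNA fragmented by alkali, and the rest was digested with RNase I to give footprints, the fragments of mRNA that a ribosome covers. Each of the 8 time points gave 1 input and 1 footprint library, so the 16 groups hold 1 library each and no value of a single library has a replicate check. Every group was the same cell line with no genetic change named in the labels, and untreated cells were taken only at 0 min, so LPS cannot be told apart from time in culture or handling at 16 h.

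LPS is sensed by Toll-like receptor 4, whose adaptors switch on NF-kB, AP-1 and interferon regulatory factors within minutes. Primary response genes need no new protein, whereas secondary genes wait for proteins made in the first wave, among them type I interferon, which acts back on the cell through the STAT factors. Late products of activated macrophages include interferon-inducible defence proteins, protease inhibitors and proteases, lipid mediators, and enzymes that rework nucleotide and lipid metabolism.

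Library totals were 6702930 to 6702932 counts in all 16 libraries, so the totals do not tell how deeply each was sequenced. All 9 macrophage markers looked for were counted at 16 h, with a summed input count of 19887 in untreated cells and 31539 at 16 h. At 16 h the summed input count was 8 for the 2 lymphocyte markers in the table, 0 for the 1 natural killer cell marker, 5 for the 1 fibroblast marker, 0 for the 2 epithelial markers, 11 for the 3 endothelial markers, 1 for the 4 neutrophil markers and 10 for the 4 dendritic cell markers. Osteoclast markers summed to 35 in untreated input and 32 at 16 h. Listed markers with 0 counts in the 16 h input library were Ncr1, Krt8, Cdh1, Kdr, Elane, Mpo, Ltf, Oscar, Ocstamp, Flt3 and Cd209a. Of the other non-macrophage markers, Acp5 had 30, Pecam1 and Xcr1 8, Cd79a and Dcn 5, Cd3d and Cdh5 3, Ctsk and Zbtb46 2 and Camp 1. Not all listed markers were in the table. It held 2 of 7 lymphocyte, 1 of 3 natural killer cell, 1 of 5 fibroblast and 2 of 5 epithelial markers.

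Summed over the 44 genes, input counts were 33 in untreated cells, 48 at 15 min, 74 at 30 min, 55 at 45 min, 63 at 60 min, 92 at 75 min and 132 at 90 min, and 7272 at 16 h. Footprint sums over the same times were 33, 36, 56, 60, 57, 77 and 86, and 9784 at 16 h. The 16 h libraries stood far above all 14 earlier ones, which the choice of genes sets, and within the earlier ones the sums were highest at 90 min in both materials. These sums were unevenly held. The 4 genes highest in input took 38.1% of the input sum. The 4 highest in footprints, which are not all the same genes, took 47.2% of the footprint sum. Single members ranged at 16 h from 30 to 838 counts in input, with a median of 77, and from 31 to 1772 in footprints, with a median of 71.

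**Figure D1:**
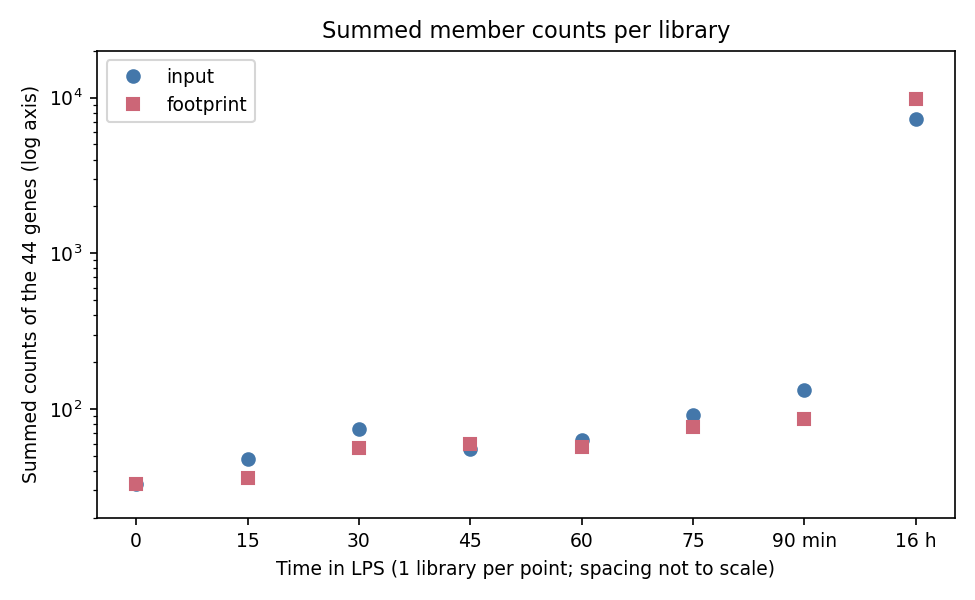
Summed counts of the 44 genes in each library on a log axis, with input as circles and footprints as squares and 1 library per point. Sums lie between 33 and 132 up to 90 min and are 7272 and 9784 at 16 h.

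**Figure D2:**
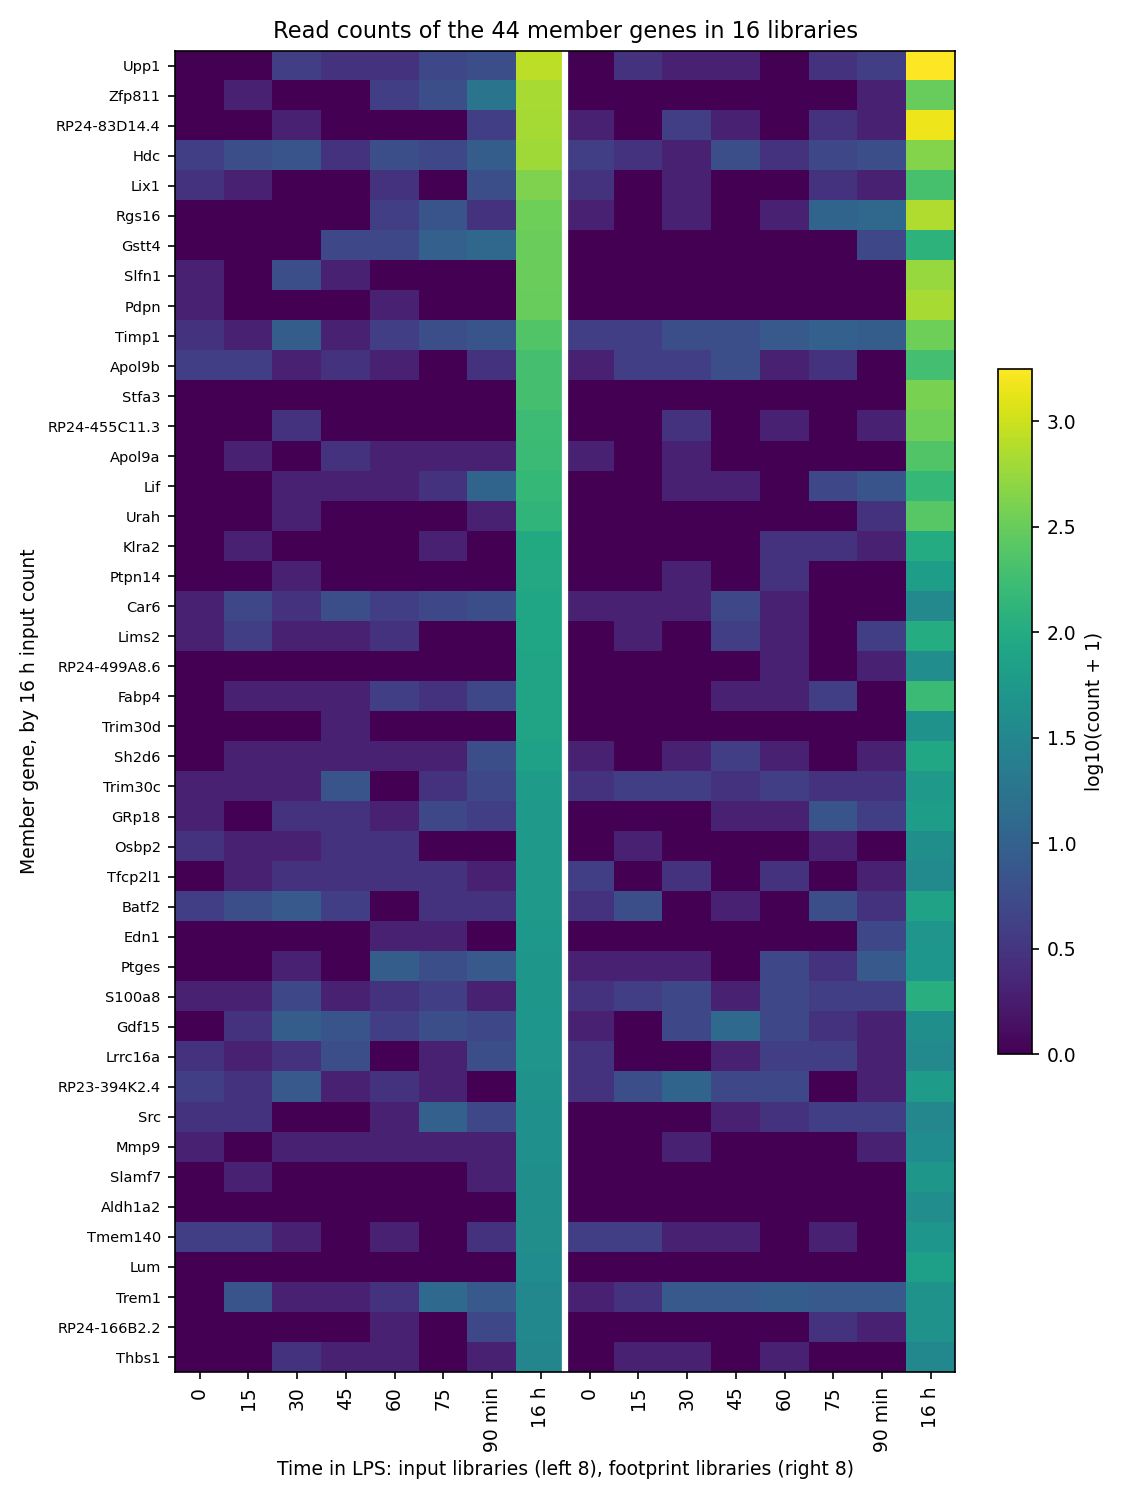
Counts of each of the 44 genes in the 16 libraries as log10(count + 1), with genes ordered by their 16 h input count, input on the left and footprints on the right. The 16 h column of each material is bright for every gene by the way they were chosen, and the 75 and 90 min columns hold scattered low counts for some genes, such as Zfp811 in input and Rgs16 in footprints.

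The gene with the most counts was Upp1, uridine phosphorylase, which splits uridine into uracil and ribose phosphate. Its input counts from 0 to 90 min were 0, 0, 3, 2, 2, 4 and 5, and 838 at 16 h. In footprints the same series read 0, 2, 1, 1, 0, 2 and 3, and 1772. Untreated counts were 0, so against a floor of 3 counts per library the 16 h value was at least 287-fold higher in input and at least 622-fold higher in footprints. The 2 materials differed at 16 h, with a footprint-to-input ratio of 2.33 (95% counting interval 2.15 to 2.54). Before 16 h the pooled ratio over 7 libraries of each kind was 0.671 (0.261 to 1.61), an interval that does not overlap the one at 16 h. The Upp1 gene lies on the plus strand of chromosome 11 from 9118103 to 9136170 (GRCm38), and its promoter is shown because it holds an AP-1 type match. The 150 bases before its first RefSeq start (chr11:9117858-9118007, plus strand, GRCm38.p6) read, with the TGANTCA match in capitals:
Upp1: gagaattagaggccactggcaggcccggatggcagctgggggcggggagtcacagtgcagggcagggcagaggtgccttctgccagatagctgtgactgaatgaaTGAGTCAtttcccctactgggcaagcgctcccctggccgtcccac

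Other metabolic genes in the group act on or carry histamine, prostaglandins, retinoids, glutathione conjugates, urate, carbon dioxide and fatty acids. Among the enzymes, Upp1, Hdc, Ptges and Aldh1a2 are on the list of metabolic genes. Hdc, histidine decarboxylase, which makes histamine, was one of the less silent members, with input counts of 3, 5, 6, 2, 5, 4 and 8 up to 90 min and 616 at 16 h, and footprint counts of 3, 2, 1, 5, 2, 4 and 5 and then 442. Its 16 h to untreated ratio was 211 in input (71.8 to 1020) and 155 in footprints (52.7 to 755). Hdc thus had counts in every library, all far below those at 16 h. Gstt4, of the theta class of glutathione transferases, had input counts of 0, 0, 0, 4, 4, 9, 11 and 324, and footprint counts of 0 up to 75 min, 4 at 90 min and 125 at 16 h. Urah, a hydrolase of the urate breakdown pathway, had 133 input and 252 footprint counts at 16 h, after at most 1 and 2 counts in any earlier library. Fabp4, a fatty acid carrier of adipocytes and macrophages, had 77 and 165, and Car6, a secreted carbonic anhydrase, had 82 and 33. The ratio of the materials thus ran opposite ways for these last members. Ptges, which makes prostaglandin E from the product of Ptgs2, had 52 and 50, and Aldh1a2, which makes retinoic acid, had 40 and 38 after 0 counts in all 14 earlier libraries. Of the 32 other genes of the list of metabolic enzymes and transporters that could be tested at 16 h, 15 were higher and 9 lower in input, and 16 higher and 8 lower in footprints.

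That test of other genes was a quasi-likelihood fit of edgeR across 9529 genes, of which 28.6% were called higher and 27% lower in input, and 25.9% higher and 24.2% lower in footprints, at an adjusted p of 0.05. With 1 library of each material at 16 h, its error came only from the scatter of the 0 to 90 min libraries about a fitted curve, on the assumption that the single library at 16 h varies as they do. Its log2 changes are fitted values at 16 h over the fitted start of that curve, which can differ from the ratio of the 2 counts printed. None of the 44 genes passed its count filter of 10 counts in 4 libraries of each kind. Among the other metabolic genes, Acod1, the itaconate-making enzyme, had 30 input counts untreated and 21623 at 16 h, with a fitted log2 change of 11.22 ± 0.48 (SE; edgeR adjusted p = 1.2e-08). Ptgs2, cyclooxygenase, had 19 and 22909, with a fitted log2 change of 10.97 ± 0.29 (edgeR adjusted p = 5.1e-10). Alox5, a lipoxygenase, went the other way, from 368 to 28 input counts.

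Interferon-inducible genes made up 6 of the 44: Slfn1, Apol9a, Apol9b, Trim30c, Trim30d and Batf2. Of the 54 other genes on the list of interferon-inducible genes that could be tested, 53 were higher and 0 lower in input at 16 h by edgeR, and 51 higher and 0 lower in footprints. Their median fitted log2 change was 2.92 in both materials, against 0.01 in input and 0 in footprints over all genes tested. The lists were written with earlier results of these data known, so these and the other list shares are descriptions. Isg15, a ubiquitin-like modifier, went from 5 to 3101 input counts, and Irf7, an interferon regulatory factor, from 28 to 5300. Of the 4 other genes tested on the list of interferon-inducible GTPases, 3 were higher in both materials, among them Irgm1, with input counts of 88 and 1127.

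Slfn1, a Schlafen family gene, had input counts of 1, 0, 5, 1, 0, 0 and 0 up to 90 min and 322 at 16 h, and no footprint before 556 at 16 h. Apol9a and Apol9b, of the apolipoprotein L family, are near-identical copies that lie 317.9 kb apart on chromosome 15. Apol9a had input counts of 0, 1, 0, 2, 1, 1, 1 and 162 and footprint counts of 1, 0, 1, 0, 0, 0, 0 and 231. Apol9b had input counts of 3, 3, 1, 2, 1, 0, 2 and 195 and footprint counts of 1, 3, 3, 5, 1, 2, 0 and 189. In either gene 27.9% of the 29-base stretches of the coding sequence were found in no other gene, so the split of counts between the copies is uncertain, and their sum was 357 in input and 420 in footprints. Trim30c and Trim30d, of a cluster of TRIM genes on chromosome 7, lie 69.2 kb apart and had 61 and 77 input counts and 57 and 46 footprint counts. Of the Trim30d coding sequence, 71.3% was found in no other gene. Batf2, a basic leucine zipper factor, had 55 and 74 counts after up to 7 in an earlier library, and the gene overlaps Arl2 on the other strand.

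Interferon-stimulated response elements lie in many promoters of interferon-inducible genes. Here 4 promoters with a GAAANNGAA match are shown because they include the Apol9 copies and Trim30d. The other gene shown, Tmem140, is on no list, and Slfn1, Trim30c and Batf2 are not among the members with a match. Capitals mark the match, which reads as its reverse complement where it lies on the other strand, and the Apol9 promoters hold 2 overlapping matches. The windows are chr15:77728922-77729071 on the plus strand, chr15:77411081-77411230 on the minus strand, chr7:104507850-104507999 on the minus strand and chr6:34862996-34863145 on the plus strand, and each is the 150 bases before the gene's first RefSeq start (GRCm38.p6). Aligned, the Apol9a and Apol9b windows shared 128 bases with 0 mismatches.
Apol9b: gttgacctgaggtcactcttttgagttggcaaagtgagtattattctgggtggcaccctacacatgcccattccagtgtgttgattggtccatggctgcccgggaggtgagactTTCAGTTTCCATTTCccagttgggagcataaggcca
Apol9a: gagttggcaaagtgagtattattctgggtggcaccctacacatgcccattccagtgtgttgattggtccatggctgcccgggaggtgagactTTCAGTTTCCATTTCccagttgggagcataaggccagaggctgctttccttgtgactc
Trim30d: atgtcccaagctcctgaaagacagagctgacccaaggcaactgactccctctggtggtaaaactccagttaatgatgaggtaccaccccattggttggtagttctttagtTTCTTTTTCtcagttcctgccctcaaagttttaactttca
Tmem140: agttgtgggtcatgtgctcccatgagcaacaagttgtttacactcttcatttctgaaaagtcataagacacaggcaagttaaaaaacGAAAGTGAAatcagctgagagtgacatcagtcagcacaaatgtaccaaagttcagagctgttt

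Across the group, the letters of 8 motifs were searched on both strands from 250 bases before to 50 after the start, in the 31 members with a RefSeq promoter and in all 27025 genes of that table. The AP-1 type motif TGANTCA was in 25.8% of member genes against 9.0% of all genes. Apol9a, Apol9b, Klra2, Lif, Slamf7, Stfa3, Trim30d and Upp1 held it. In the bases before the start alone the shares were 16.1% and 7.8%. The ISRE type GAAANNGAA was in 16.1% of members against 9.8% (Apol9a, Apol9b, Edn1, Tmem140 and Trim30d), and the GAS type TTCNNNGAA, a STAT motif, in 12.9% against 9.6%. Matches of TTGCNNAA (C/EBP type) were in 3.2% against 12.2%, those of TATAAA in 9.7% against 15.7%, and those of TGACGTCA (CRE type) in 0% against 2.0%. Neither NF-kB type motif was found in a member window, GGANTTTCC being in 1.5% and GGGANTTCC in 1.9% of all genes. These shares are descriptions of letters in a window, with no test and no bearing on whether a factor binds there. With Apol9a and Apol9b near-identical, these 2 genes are not independent. The median GC content of the member promoters was 54.0%, against 52.7% over all.

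**Figure D3:**
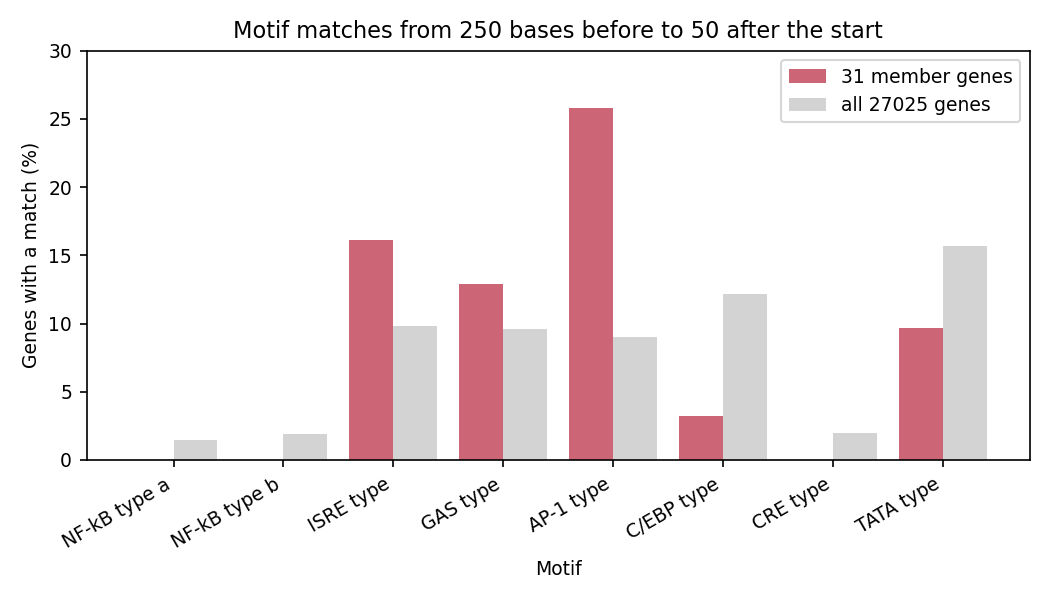
Percent of genes with at least 1 match of each motif from 250 bases before to 50 after the start, for the 31 member genes with a RefSeq promoter and for all 27025 genes. The AP-1 type bar of the members stands at 25.8% beside 9.0%, and the C/EBP type bar at 3.2% beside 12.2%.

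A further pair of promoters are shown for the motifs they carry, Edn1 with an ISRE type match in capitals (chr13:42301326-42301475, plus strand) and Slamf7 with an AP-1 type match (chr1:171649000-171649149, minus strand). Edn1 encodes endothelin, a vasoconstrictor peptide. Slamf7 is a receptor of the SLAM family on immune cells.
Edn1: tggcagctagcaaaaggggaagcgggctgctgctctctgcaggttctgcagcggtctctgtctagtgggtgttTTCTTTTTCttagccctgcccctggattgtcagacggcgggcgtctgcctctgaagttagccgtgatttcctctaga
Slamf7: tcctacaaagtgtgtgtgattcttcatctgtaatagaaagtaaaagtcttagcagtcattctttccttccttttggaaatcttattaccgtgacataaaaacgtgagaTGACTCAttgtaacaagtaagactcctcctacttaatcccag

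Surface receptors and adhesion molecules in the group were Pdpn, Klra2, Slamf7 and Trem1. Pdpn, podoplanin, a mucin-type membrane protein that activates platelets through a C-type lectin receptor, had input counts of 1, 0, 0, 0, 1, 0 and 0 and then 310, and 0 footprints up to 90 min and then 657. The footprint value was at least 231-fold above the floor. Klra2, a lectin-like receptor of the Ly49 family, had 93 input and 98 footprint counts at 16 h after at most 1 and 2 earlier. Slamf7 had 41 and 52, with no footprint before 16 h. Trem1, a receptor that amplifies inflammatory signals in myeloid cells, differed from these: it had up to 12 input and 8 footprint counts at 15 to 90 min, and 32 and 46 at 16 h. Of the 43 other genes tested on this list, 24 were higher and 8 lower in input and 25 higher and 8 lower in footprints at 16 h by edgeR. Cd36, a scavenger receptor, went from 35 to 992 input counts.

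Protease inhibitors and matrix genes were Stfa3, Timp1, Mmp9 and Thbs1, with Lum beside them on no list. Stfa3, a stefin that inhibits cysteine proteases, had 0 counts in all 14 earlier libraries and 195 input and 387 footprint counts at 16 h, at least 66.7-fold and at least 136-fold above the floor. Timp1, the secreted inhibitor of matrix metalloproteinases, had input counts of 2, 1, 8, 1, 3, 5, 6 and 231, and footprint counts of 3, 3, 5, 5, 7, 9, 8 and 341. The gene overlaps Syn1 on the other strand, and the sources used here do not say whether counting used strand. Mmp9, a gelatinase that Timp1 inhibits, was lower, at 42 and 37 counts after at most 1. Thbs1, thrombospondin, was nearest to the limit of the choice, with 30 and 32. Lum, lumican, a collagen-binding proteoglycan, had 0 counts in all 14 earlier libraries and 37 and 68 at 16 h, while Dcn, the related proteoglycan listed as the fibroblast marker, had 5 input counts. Of the 8 other matrix and protease genes tested, 5 were higher and 1 lower in each material, and of the 9 other complement, acute phase and serpin genes, 5 were higher and 1 lower in input and 4 higher and 1 lower in footprints.

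Secreted factors were Lif, Edn1, S100a8 and Gdf15. Lif, a cytokine of the interleukin 6 family, had input counts of 0, 0, 1, 1, 1, 2, 10 and 146 and footprint counts of 0, 0, 1, 1, 0, 4, 6 and 145. Edn1 had 53 and 48 counts at 16 h, with no count in either material before 60 min. S100a8, a calcium-binding alarmin of neutrophils and monocytes, had 51 and 111, and Gdf15, a stress-induced member of the TGF-beta family, had 50 and 41 after up to 12 footprint counts at 45 min. Of the neutrophil markers, Elane, Mpo and Ltf stood at 0 in the 16 h input library and Camp at 1. Among the 14 other secreted factors tested, 7 were higher and 4 lower in input, and 7 higher and 2 lower in footprints.

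Regulators of signalling and transcription were Rgs16 and Batf2, with Src, Ptpn14 and Tfcp2l1 on no list. Rgs16, which speeds the shut-off of G protein signals, had input counts of 0, 0, 0, 0, 3, 6, 2 and 339 and footprint counts of 1, 0, 1, 0, 1, 10, 11 and 728. Src, a tyrosine kinase, had 42 and 31 counts at 16 h, Ptpn14, a tyrosine phosphatase, 91 and 63, and Tfcp2l1, a transcription factor of embryonic stem cells and epithelia, 56 and 34. Of the 49 other genes tested on the list of cell death, inflammasome and signalling, 35 were higher and 3 lower in input and 33 higher and 2 lower in footprints, and of the 32 other transcription regulators 17 were higher and 2 lower in input and 17 higher and 3 lower in footprints. On the lists without members, 23 of 25 antigen presentation genes were higher and 1 lower in input, with 21 and 1 in footprints. Of the 21 G protein-coupled receptors tested, 9 were higher and 6 lower in input, and 11 higher and 5 lower in footprints.

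In all, 23 of the 44 were on at least 1 of the 11 lists and 21 on none. Zfp811, a zinc finger gene on the minus strand of chromosome 17 from 32795676 to 32809931, was next after Upp1 in input, with counts of 0, 1, 0, 0, 3, 5, 17 and 667. Its footprint counts were 0 up to 75 min, 1 at 90 min and 313 at 16 h. Lix1 had 411 input and 201 footprint counts at 16 h after at most 5 and 2, and 47.3% of its coding sequence was found in no other gene, the rest being shared mostly with Gm11578. Lims2, Sh2d6, Osbp2, Tmem140 and Lrrc16a (now Carmil1) had between 39 and 81 input counts. The other 6 members had no annotation under their names and are given by identifier only: RP24-83D14.4, RP24-455C11.3, RP24-499A8.6, RP23-394K2.4, RP24-166B2.2 and GRp18. RP24-83D14.4 was the third highest in input, at 646 counts, and second in footprints, at 1459, after at most 3 counts in any earlier library of either material.

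Per kilobase of coding sequence, which 38 members have, 16 h levels spread widely. Upp1 had 898 input counts per kb, Stfa3 631, Pdpn 601, Rgs16 562, Lix1 486, Gstt4 450 and Zfp811 403. The lowest input levels per kb were those of Thbs1 (8.54) and Lrrc16a (11.6). Footprint levels per kb placed Upp1 (1900), Pdpn (1270), Stfa3 (1250) and Rgs16 (1210) at the top, and Zfp811 at 189. The lengths are those of the annotated coding sequence, and the sources used here do not say over which features reads were counted. Over the 36 members with an annotated 3′ untranslated region the median coding length was 931.5 bases, against 1401 over the 12597 such genes of the table. The AU-rich letters TATTTAT were in that region of 9 of the 36, 25.0%, against 26.1%.

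The choice of genes set the same minimum for both 16 h counts and no separate limit on their ratio. That minimum of 30 still bounded the ratio of members with few counts, such as Thbs1 with 30 input and 32 footprint counts. The footprint-to-input ratio at 16 h was tested, although it is made of counts that the choice used. Every member passes the filter of the test by that choice. The quasi-likelihood test of edgeR compared each gene's scaled ratio at 16 h with 1, across the 8743 genes with at least 30 counts in both 16 h libraries and with the 8 time points as blocks. The error came from the scatter of the 7 earlier pairs, with 6 residual degrees of freedom, and the lone 16 h pair was assumed to vary like them. Members have few counts in those pairs by choice, and Stfa3 and Lum have none, so these pairs hold little or no scatter of the members' own ratios. A call on a member thus describes 1 pair of libraries, with no error of its own from replicates. Of the 44 genes, 13 were called high, 29.5%, against 32.9% of all genes tested, and 5 were called low, 11.4%, against 26.7%. The share called high was thus near the background, and that called low was below it, a difference that was not tested. The minimum of 30 held for all 8743 genes tested. It bounded low ratios of genes with few input counts and high ratios of genes with few footprint counts. The median log2 ratio was 0.29 in members, with quartiles of -0.31 and 0.76, and 0.09 over all genes, with quartiles of -0.51 and 0.57.

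Depth went with the calls. Among the 16 members with at least 100 counts in both 16 h libraries, 10 were called high and 3 low, where all 6581 such genes had 37.4% high and 25.4% low. Among the other 28 members, 3 were high and 2 low, where the 2162 other genes had 19.0% and 30.7%. The 26 members that were not called are not shown to have a ratio of 1.

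Each ± value of a member ratio is an SE set by the scatter of the earlier pairs, where members had few or no counts. It thus says little about the spread of a member's own ratio, and the calls are a description of the 16 h pair. Upp1 had a log2 ratio of 1.22 ± 0.14, with a counting interval of 1.1 to 1.34 at 16 h alone. RP24-83D14.4, at 1.32 ± 0.16, and Pdpn, at 1.23 ± 0.16, were like it. These were the only 3 of the 18 called members whose call held by edgeR, by DESeq2 and in edgeR without the time-point block. Rgs16, at 1.24 ± 0.18, lost its call by DESeq2 (adjusted p = 0.53) and without the block (edgeR adjusted p = 0.24). Stfa3, at 1.13 ± 0.18, Slfn1, at 0.93 ± 0.17, and RP24-455C11.3, at 1.17 ± 0.19, held by DESeq2 and lost it without the block (edgeR adjusted p = 0.089, 0.22 and 0.051). S100a8, at 1.26 ± 0.24, held without the block and lost it by DESeq2 (adjusted p = 0.11). Fabp4, at 1.24 ± 0.25, Urah, at 1.06 ± 0.21, Lum, at 1.02 ± 0.33, Timp1, at 0.70 ± 0.17, and Apol9a, at 0.65 ± 0.22, lost it under both. The Apol9a value also rests on the uncertain split with Apol9b, and the summed pair had a ratio of 1.30 (counting interval 1.12 to 1.5).

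Called low were 5 members with fewer footprints than input. Gstt4 had a log2 ratio of -1.23 ± 0.23, Car6 -1.17 ± 0.33, Zfp811 -0.95 ± 0.15, RP24-499A8.6 -0.89 ± 0.32 and Lix1 -0.89 ± 0.21. None of these 5 calls held by DESeq2 (adjusted p = 0.89 for Gstt4 and 0.91 for Zfp811) or without the time-point block (edgeR adjusted p = 0.24 and 0.34). The counting intervals at 16 h alone lay below 1, at 0.344 to 0.525 for Gstt4 and 0.451 to 0.593 for Zfp811. Hdc, with the fourth highest input count, had a log2 ratio of -0.34 ± 0.16 (edgeR adjusted p = 0.081).

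**Figure D4:**
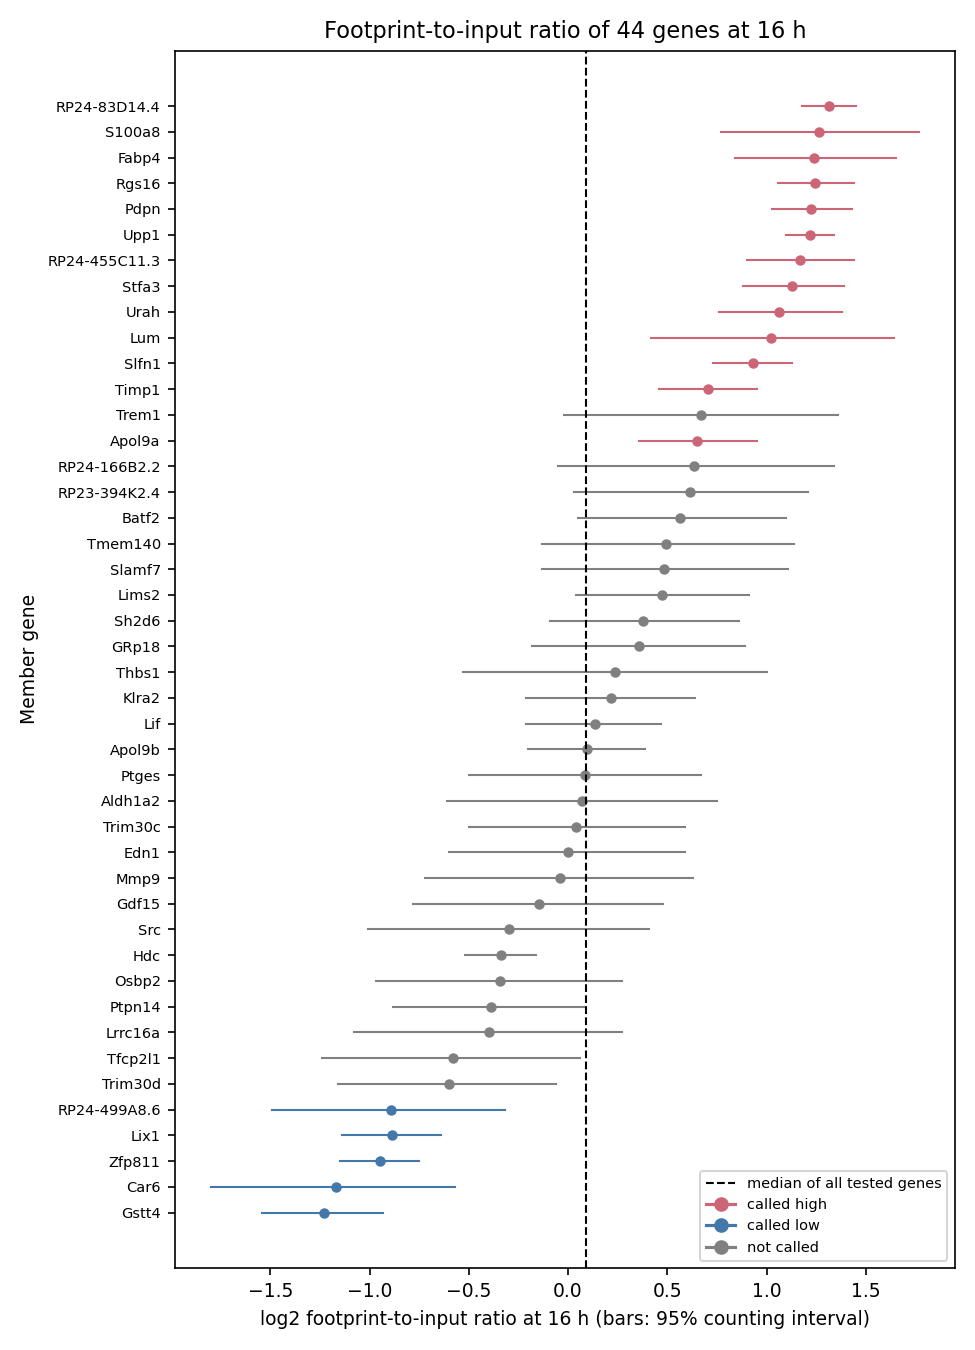
The log2 footprint-to-input ratio of each of the 44 genes at 16 h after TMM scaling, with bars for the 95% counting interval and colours for the edgeR call. RP24-83D14.4 is at the top at 1.32 and Gstt4 at the bottom at -1.23, and the dashed line is the median of all tested genes, 0.09.

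The course before 16 h is limited by the choice of genes to at most 20 counts, and its direction is a description. Summing both materials, 24 of the 44 had more counts at 75 and 90 min than at 15 and 30 min, 13 had fewer and 7 had equal counts. Of the 3185 other genes within the same limits before 16 h, 29.1% had more and 35.2% fewer, against 54.5% and 29.5% of the members. The remaining genes had equal counts. The other genes were not matched to the members in early counts, so the shares are not like for like. Among members, 8 had at least 10 counts at 75 and 90 min and at least 3 times those at 15 and 30 min: Zfp811, Rgs16, Gstt4, Lif, GRp18, Ptges, Lrrc16a and Src. The share of the 3185 other genes that meet this cut was not computed, so the count describes the members only. At the other end, Stfa3, Aldh1a2 and Lum had no count in any of the 14 earlier libraries, and Slfn1, Pdpn, Trim30d and Slamf7 had no footprint before 16 h.

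These 8 genes differed in which material held more early counts. Zfp811 had 22 input counts and 1 footprint count at 75 and 90 min, and Gstt4 had 20 and 4. Rgs16 had 8 and 21 over the same times. Lif had 12 and 10, Ptges 12 and 9, and Src 13 and 6, so these stood between. Over all 7 earlier times the scaled footprint-to-input ratio of Zfp811 was 0.0459 (0.00112 to 0.279), and at 16 h it was 0.518 (0.451 to 0.593), intervals that do not overlap. For Gstt4 the early ratio was 0.17 (0.0434 to 0.487) and the 16 h ratio 0.426, and these intervals overlap. Rgs16 had 2.60 (1.23 to 5.89) early and 2.37 (2.08 to 2.70) at 16 h. Of the 36 members with a ratio at both stages, 3 had intervals that do not overlap: Upp1, Zfp811 and Fabp4. The share of all genes with such intervals was not computed, so this count cannot be read as a trait of the group. Fabp4 went from 0.497 (0.137 to 1.52) to 2.36 (1.79 to 3.14). These intervals cover counting error only.

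**Figure D5:**
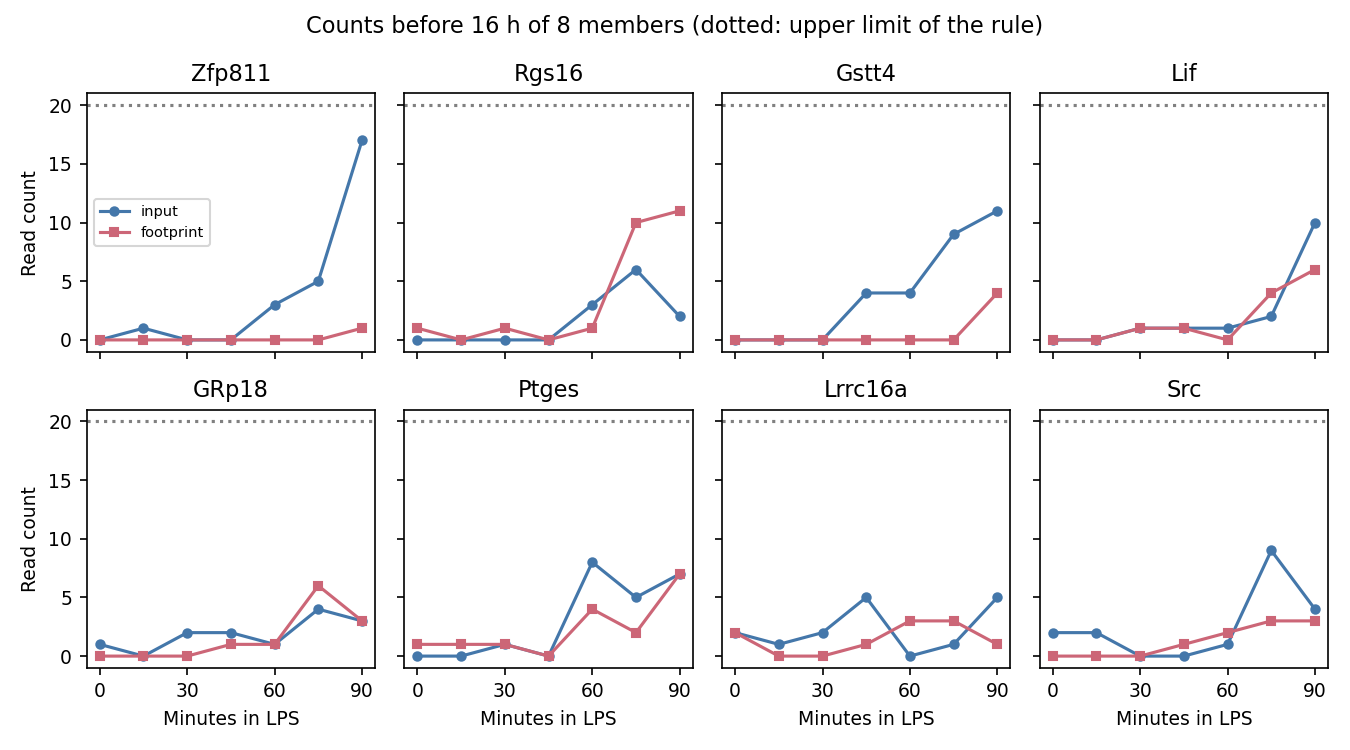
Counts from 0 to 90 min of the 8 members with at least 10 counts at 75 and 90 min and at least 3 times those at 15 and 30 min, with 1 library per point and the dotted line at the upper limit of 20. Zfp811 reaches 17 in input beside 1 in footprints at 90 min, and Rgs16 reaches 11 in footprints beside 2 in input.

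The limits of the choice fall among genes of like counts. Just inside the 16 h limit of 30 were Thbs1, Src and Trem1, whose smaller 16 h counts were 30, 31 and 32, and just outside were Ifnb1 at 29 and Dpep2 and Fam171b at 27. At the early limit, Zfp811 reached 17 and Gdf15 and Trem1 12, and outside it were Gadd45a at 26, Bcl2a1a at 28 and Tnfrsf9 at 40. At the untreated limit, 7 members had 3 counts in an untreated library, among them Apol9b, Batf2 and Hdc, and Axl and Galnt3 were among the genes that fell outside with 4. The 16 genes that met every count limit and were left out by name held some of the highest counts at 16 h, with 2343 input counts for Lcn2, an iron-siderophore binder, 1024 for Zbp1 and 849 for Nos2, the nitric oxide synthase.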

How the data were processed

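Read counts per gene for 8 input and 8 footprint libraries were used as deposited by the authors, per the file headers. A second set of 16 columns, a normalised signal, was deposited by the authors and is the counts divided by a size factor; it was used only to repeat the choice of genes. The submitters' processing notes name Bowtie 0.12.8, DESeq2 1.18.1 and mm10. The sources used here do not give the counting method or its use of strand. The members and the lists were chosen with earlier results of these data known, and some lists hold genes picked with those results in view.

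Tests used edgeR 4.0.16 (quasi-likelihood F-test, TMM scaling) under R 4.3.3, with p-values adjusted by Benjamini-Hochberg over every gene tested and a threshold of 0.05; DESeq2 1.42.0 was an alternative. Ratios were fitted with the time point as a block, since input and footprints of a time came from 1 lysate per the labels' protocols. The 16 h tests of other genes fitted linear and quadratic terms in minutes and a 16 h term to the 8 libraries of a material, with 4 residual degrees of freedom. The scripts were tested on simulated counts of genes that passed the count filter of the 16 h tests. No member passed that filter, so genes like the members were not simulated. Intervals are exact 95% counting intervals, and a ratio against 0 counts uses a floor of 3 counts per library. No molecular identifiers are named, so counting error is all that intervals and floors cover. Annotation was GENCODE and RefSeq of GRCm38, which names 38 of 44 members, and promoter sequences are from RefSeq (GRCm38.p6).

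Named members were the 10 with the most input counts at 16 h, the 5 highest and 5 lowest ratios, those called, up to 8 a list and those nearest each limit. Others were named to account for every member, after their values were seen. Named other genes were drawn from the 4 largest changes per list. Lims2, Sh2d6, Osbp2, Tmem140, GRp18 and the clone identifiers fall outside the lists.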

Additional observations from a re-analysis of the deposited data

How the results depend on the processing

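The counts of members with a called footprint-to-input ratio, 13 high and 5 low, rest on the test. They were 6 and 0 by DESeq2 and 4 and 0 without the time-point block, which pairs the input and footprint libraries of a lysate. No member lacked an adjusted p by DESeq2. Leaving out the pair of each earlier time in turn gave 13 high throughout and 5 to 6 low. Every such fit kept the same 16 h pair, so that pair was not tested by it. Restricted to the 34 members with at least 80% of coding 29-base stretches in no other gene, the counts of calls were 10 and 3. This alternative was chosen after seeing the data. The median log2 ratio of 0.29 was 0.82 over the members with at least 100 counts in both 16 h libraries. The number of members was 26 with at least 50 counts at 16 h in place of 30, and 44 to 45 when the early limit was lifted at 1 time in turn. Shares of promoters with a C/EBP type or a TATA type match were 0 and 0% over members with at least 100 input counts at 16 h, where the GAS type share was 7.1% in place of 12.9%, the AP-1 type share 35.7% in place of 25.8% and the ISRE type share 14.3% in place of 16.1%.

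Over all genes, scaling by total counts gave 2162 high and 2732 low ratios in place of 2873 and 2338, and 2129 higher and 3362 lower in input at 16 h in place of 2722 and 2573, as the median gene moved from 0.09 to -0.06 for the ratio and from 0.01 to -0.16 for input. In footprints it gave 2099 and 2764 in place of 2468 and 2309. Leaving out each earlier time gave 2500 to 2923 high and 2289 to 2683 low ratios, 1899 to 2862 higher and 1706 to 2700 lower in input, and 1520 to 2586 higher and 1495 to 2446 lower in footprints. The counts of 1899, 1706, 1520 and 1495 were all those without the untreated library. More ratios were thus low than high with total-count scaling, and also without the untreated pair (2500 high and 2683 low), the reverse of the main split, and total-count scaling turned the split for input and footprints as well. In input it was also near even without the 90 min library, at 2615 and 2622. None of the 18 called member ratios changed sign under the alternatives run. With equal library totals, the original depth is unknown, and counts under 100 at 16 h limit the ratios.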
